A study of Acipenser sturio with 24 samples.

Results

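A group of 179 assembled components was low in 7 libraries of a sturgeon embryo series and higher in the 17 other libraries, although the 7 lie among the 17 in stage order. The 7 libraries are those of Nieuwkoop-Faber (NF) stages 0, 13, 16, 19, 24, 29 and 36. NF stages come from Xenopus, a frog. A component was a member when its mean deposited value over the 17 was at least 5, its mean over the 7 was no more than 25% of that, and at least 5 of the 7 lay below the lower of the nearest of the 17 on either side. Stages 0 and 36 have such a neighbour on 1 side. Of 275906 components in the table, 8042 had a mean of at least 5 over the 17. Of these, 192 met the 25% limit and 179 (2.23% of 8042) also met the neighbour criterion. These values chose the members, so the difference between the 7 and the 17 is described here and not tested.

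The series holds 1 library of whole embryos for each of 24 stages, from NF 0 to NF 36. Per the labels, all embryos were Bester hybrids, a cross of beluga (Huso huso) and sterlet (Acipenser ruthenus), grown in diluted MMR saline, and RNA was depleted of ribosomal RNA. In the organism field, however, the species given is Acipenser sturio. Nothing in the labels gives the clutch, the parents, the number of embryos pooled or a library batch for any sample. Whether the 7 libraries share any of these, and the 17 do not, was not tested, and the tables hold no value that could tell them apart. For tests of stage, the 17 libraries were grouped into windows of cleavage-blastula (NF 4 to 9, 3 libraries), gastrula (NF 10 to 12.5, 5 libraries), neurula (NF 13.5 to 20, 4 libraries) and tailbud (NF 22 to 35, 5 libraries).

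As background, an egg carries RNA laid down by the mother, and embryos live on it until their own genome is transcribed. Embryos of 1 clutch share a mother, while clutches can differ in maternal load and in the alleles they carry. Sturgeons descend from ancestors with duplicated genomes, and a de novo assembly can place alleles or gene copies in separate components. The components carry no gene names in the deposited table, so no gene or pathway is named.

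Members were low in the 7 libraries, and none was absent from all of them, so "missing" goes further than the values. A 0 in at least 1 of the 7 was held by 118 of 179 members, and 61 stood above 0 in each of the 7. A single 0 among the 7 was held by 56 members, and 4 members were at 0 in 6 of them. In the 17 libraries, 123 members were never at 0. Members that reached 1 or more throughout numbered 22 over the 7 libraries and 82 over the 17. Another 15 members stayed under 1 in each of the 7.

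The median member reached 14.5% of its 17-library mean in the 7 libraries, with quartiles of 8.87% and 20.5%. Over the 8042 components with the same minimum the median was 101%, with 5% of them under 37.6% and 5% above 193%. Member means over the 7 ran from 0.0157 to 56.1 with a median of 1.35, and over the 17 from 5.06 to 1510.4 with a median of 9.73. The highest of the 7 lay below the lowest of the 17 for 34 of 179 members, and 0.622% of the 8042 components had such a gap. Both counts rest on the contrast that chose the members. Just inside the 25% limit lay comp248771_c0 at 24.7%, comp266636_c0 at 24.5% and comp255543_c2 at 24.4%. Just outside it were comp293688_c0 at 25.2%, comp155117_c0 at 25.2% and comp263793_c3 at 25.3%.

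**Figure D1:**
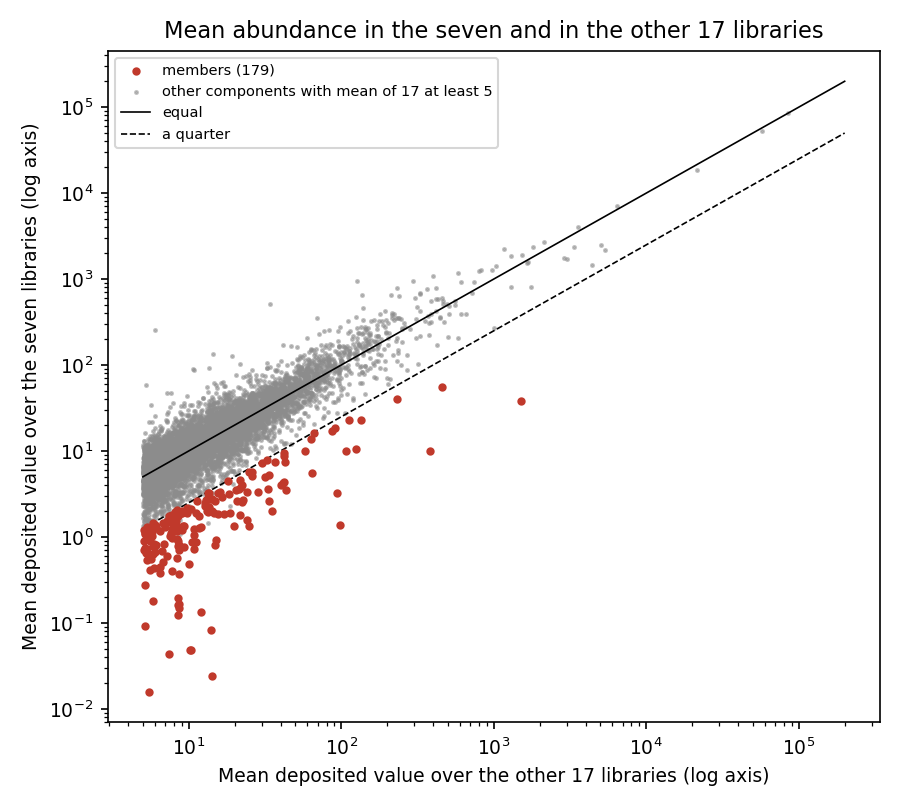
Mean deposited value of each component over the 7 libraries (vertical, log axis) against its mean over the 17 others (horizontal, log axis), for components with a mean of at least 5 over the 17; 1 component with a mean of 0 over the 7 is not drawn. The 179 members lie below the dashed 25% line, while the median of all 8042 components lies at 101%. Another 13 components met the 25% limit but not the neighbour criterion, and the 1 not drawn is among them.

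The low values repeated at every one of the 7 stages. All 7 libraries lay below their neighbours for 144 members, 6 of the 7 for 19 and 5 of the 7 for 16. Among members whose neighbours averaged at least 5, the median member stood at 13.6% of its neighbour at NF 0, 13.3% of the neighbour mean at NF 13, 9.78% at NF 16, 12.3% at NF 19, 10.1% at NF 24, 7.25% at NF 29 and 8.67% at NF 36. Over all components the same medians were 98.5%, 124%, 93.3%, 101%, 81.9%, 87.8% and 103% in the same order of stages. The 17 libraries, each set against its own neighbours among the 17, had member medians from 70.0% at NF 15 to 107% at NF 11. The 2 sets of libraries did not overlap in this measure. The rule used the same neighbours, so low member medians in the 7 largely follow from how members were chosen.

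A drop to no more than 25% of the lower neighbour was counted where that neighbour stood at 5 or more. Between 71.1% of members (64 of 90, at NF 13) and 91.4% (128 of 140, at NF 29) dropped this far in the 7 libraries. Members were chosen for low values against these neighbours, so a high share is largely built in. Over all components the share in these libraries ran from 2.36% to 6.97%. In the 17 libraries the highest share of members was 4.73% (7 of 148), at NF 35, which has 1 neighbour. At NF 35 the share over all components was 1.73%.

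**Figure D2:**
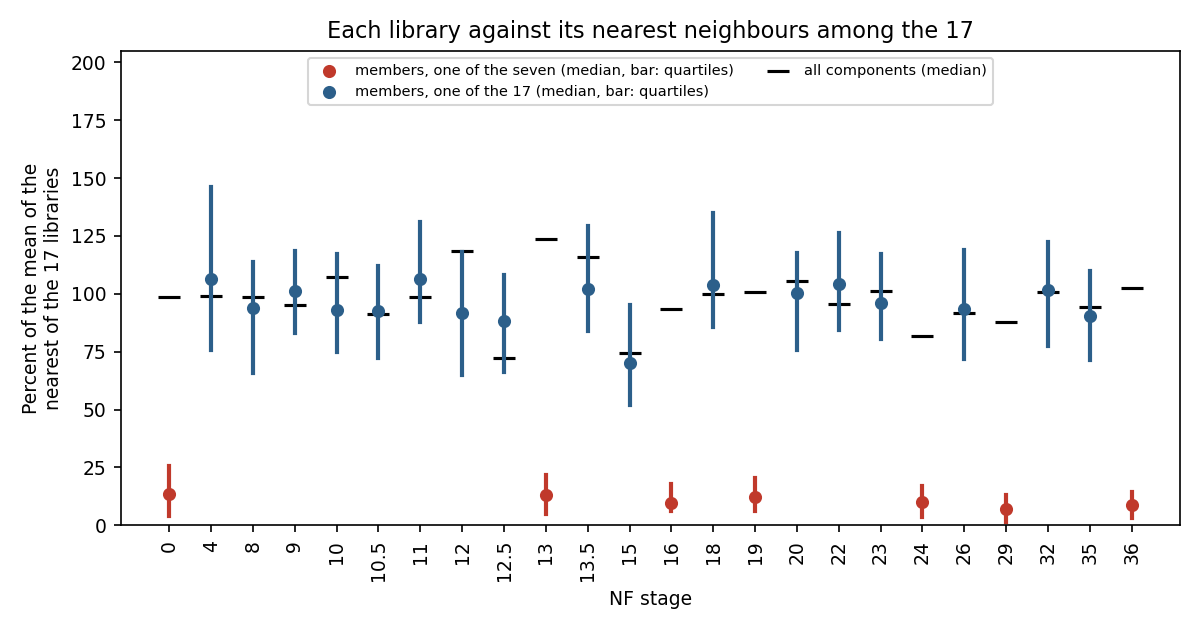
Median member value in each library as a percentage of the mean of the nearest of the 17 libraries on either side, by NF stage; bars are quartiles over members, and black dashes are the median over all components with a neighbour mean of at least 5. The 7 libraries sit between 7.25% and 13.6%, and the 17 between 70.0% and 107%.

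Summed over members, the 7 libraries held 0.0800% to 0.153% of their total value, and the 17 held 0.558% to 2.03%. Without the most abundant member, comp144409_c0, these shares were 0.0720% to 0.152% and 0.557% to 1.21%. The number of members at 1 or more was 68 to 116 in the 7 and 116 to 174 in the 17. Most members at 0 were found at NF 0 (77 of 179), NF 29 (47), NF 13 (38) and NF 36 (38). The number of reads behind a unit of value, relative to NF 36, was 0.882 at NF 0, 0.626 at NF 29 and 1 at NF 36, against 1.12 to 3.39 in the 17. At NF 13, 16, 19 and 24 it was 2.37, 2.25, 2.61 and 1.74, inside the range of the 17, and members there stood at 9.78% to 13.3% of their neighbours. Absolute depth is unknown, so a 0 cannot be given as a number of reads. In whole embryos, fewer cells that express a component and less RNA per cell cannot be told apart.

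Members followed several different courses in the 17 libraries. The highest window mean was in the tailbud window for 113 members (63.1%), the cleavage-blastula window for 41 (22.9%), the neurula window for 19 (10.6%) and the gastrula window for 6 (3.35%). Among all 8042 components the shares were 45.6%, 37.4%, 9.30% and 7.73% in the same order. The median ratio of the 7 to the 17 was 13.4% for tailbud-high members, 18.3% for cleavage-blastula-high members, 14.0% for neurula-high members and 14.4% for gastrula-high members. The 25% limit holds each of these medians low by construction. Stage make-up also enters the ratio, since the 7 hold NF 0 but no gastrula library, while the 17 hold 3 cleavage-blastula and 5 gastrula libraries. An early-high component can thus have a lower ratio than its values against its neighbours. comp259142_c0, at 17.5%, had 36.0 at NF 0 against 77.4 at NF 4, and 13.4 at NF 13 against 37.0 and 33.3 beside it. The part of stage make-up in these ratios was not tested.

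**Figure D3:**
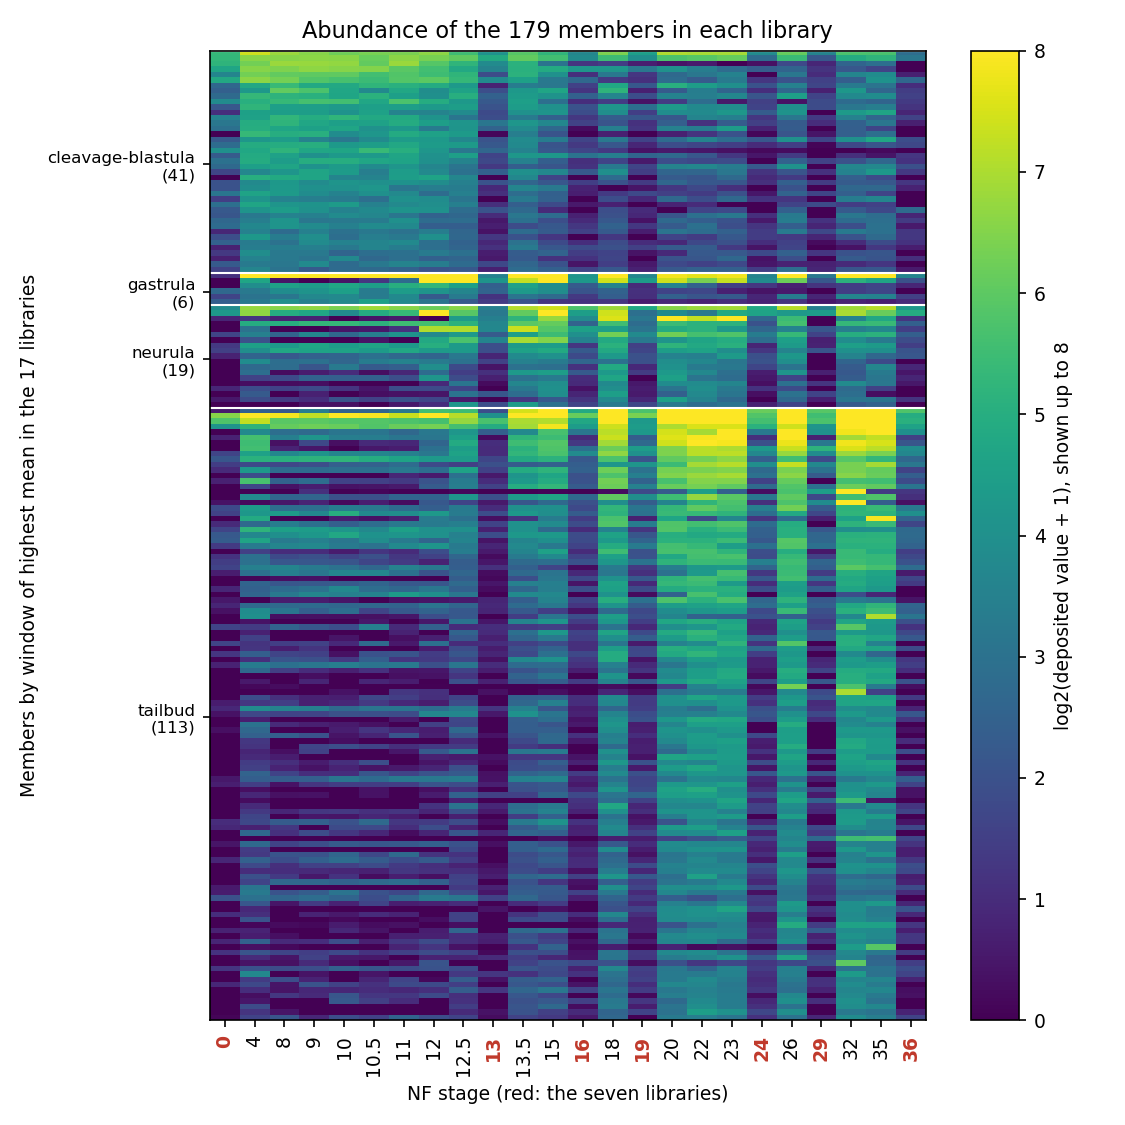
Abundance of the 179 members, as log2(deposited value + 1), in each of the 24 libraries in NF stage order (red labels, the 7 libraries); rows are grouped by the window with the highest mean in the 17 libraries and sorted by that mean over the 17. At each of the 7 stages, from 166 (NF 13) to 176 (NF 36) of the 179 members lay below their neighbours among the 17, which the rule favours. The 7 are not the darkest libraries in every row. The cleavage-blastula-high comp259142_c0, for example, had 36.0 at NF 0 and 0 at NF 23, a library of the 17.

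The most abundant member, comp144409_c0, is a late-rising component. Its lowest, median and highest deposited values were 0.48, 52.6 and 70.5 in the 7 libraries, and 3.63, 179 and 5299 in the 17. Its mean in the 7 was 2.54% of that in the 17. It rose late in both sets: in the 7 it stood at 0.48 at NF 0, 28.4 at NF 16 and 54.5 at NF 36, and in the 17 at 4.45 at NF 4, 630 at NF 15 and 5299 at NF 35. The 2 ranges overlapped, since early libraries of the 17 were lower than late libraries of the 7. At NF 19 it had 52.6, while NF 18 had 1948 and NF 20 had 5286.

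The third most abundant member, comp257465_c1, was present at all stages of the 17. Its lowest, median and highest values were 1.15, 10.9 and 16.7 in the 7 libraries, and 203, 393 and 661 in the 17, without overlap. The component comp257465_c0, of the same assembly graph (the components that share a number), was also a member, with 0, 4.51 and 11.8 in the 7 and 29.8, 39.5 and 68.3 in the 17. Its mean in the 7 was 10.2% of that in the 17, against 2.64% for comp257465_c1. Both thus lacked overlap between the 2 sets.

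A second graph also held 2 members. comp208258_c1 had lowest, median and highest values of 15.2, 56.1 and 92.2 in the 7 libraries, and 140, 324 and 992 in the 17. comp208258_c0 had a mean of 18.3 in the 7 and 90.8 in the 17, with its highest value, 416, at NF 12. Its sets overlapped, with 6.52 to 29.95 in the 7 and 8.42 to 416 in the 17. It met the neighbour criterion at 5 of the 7 stages: NF 24 (23.7) and NF 29 (19.95) lay above NF 26 of the 17 (19). Over the 17 libraries the rank correlation of these 2 components was 0.145 (Spearman, a description over 17 stages), so their courses differed while both had a lower mean in the 7. For comp257465 it was 0.331.

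Among the other abundant members, comp268795_c2 had lowest, median and highest values of 19.2, 47.4 and 55.2 in the 7 libraries and 49.3, 135 and 628 in the 17. The sets overlapped, since NF 0 (55.2), NF 29 (52.5) and NF 13 (50.6) of the 7 lay above NF 12 of the 17 (49.3). comp272103_c0 had 16.8, 20.5 and 33.8 in the 7 and 35.8, 119 and 323 in the 17, without overlap. comp62157_c1 had 0, 13.1 and 19.4 in the 7, and 0, 72.6 and 545 in the 17. These overlapped, but around NF 13 they lay far apart, with 16.6 at NF 13, 545 at NF 12.5 and 152 at NF 13.5.

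**Figure D4:**
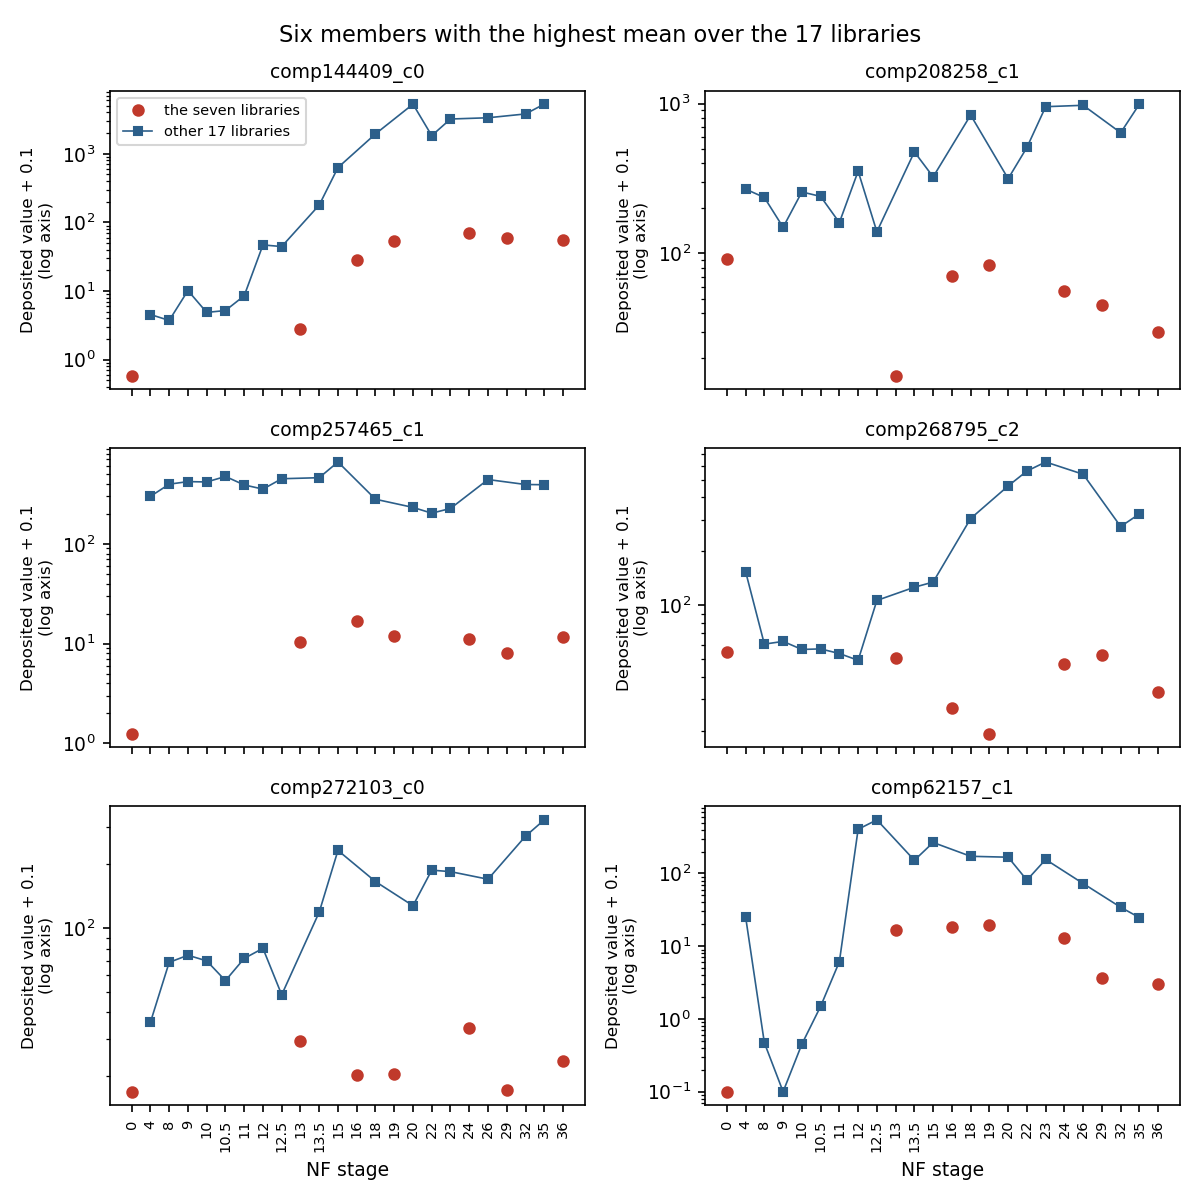
Deposited value + 0.1 (log axis) by NF stage for the 6 members with the highest mean over the 17 libraries; red circles are the 7 libraries and blue squares joined by a line the 17. Each red circle from NF 13 on lies below the blue line, also for comp257465_c1, which ranges only from 203 to 661 in the 17.

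The lowest ratios belonged to tailbud-high members that were close to 0 in the 7. comp160739_c0 had lowest, median and highest values of 0, 0 and 0.17 in the 7 libraries, and 0.8, 11.7 and 49.5 in the 17, so the sets did not overlap. comp180879_c0 did not exceed 0.2 in the 7 and reached 31.7 at NF 32. Both were found in several libraries of the 17. comp139564_c0 and comp175326_c0 did not exceed 0.11 and 0.22 in the 7. Their medians in the 17 were 0.56 and 0.13, and their highest values were 60.1 at NF 35 and 79.7 at NF 26. In the 17, comp139564_c0 and comp175326_c0 thus rest on few libraries. Over all 179 members, each taken without its highest library of the 17, 45 no longer met the mean of 5 or the 25% limit, and 134 still met both.

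Some members varied little with stage in the 17. comp216254_c0, comp272973_c0 and comp257465_c0 had the smallest coefficients of variation over the 17 (0.226, 0.241 and 0.243). comp216254_c0 averaged 22.6 ± 15.2 in the 7 libraries (SD, n = 7) and 112 ± 25.2 in the 17 (SD, n = 17). Its highest value in the 7 was 52.9, at NF 16, and its lowest in the 17 was 72.7. comp272973_c0 averaged 1.55 ± 0.713 in the 7 (SD, n = 7) and 24.2 ± 5.83 in the 17 (SD, n = 17). Its values ran from 0.71 to 2.79 in the 7 and from 18.5 to 35.7 in the 17. A coefficient under 0.5 was found for 25 members.

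What signal the members had in the 7 libraries followed that of their neighbours less closely than over the 8042 components. The rank correlation of the 7 values with the neighbour means at the same stages was above 0 for 159 of 179 members, with a median of 0.571. Over the 8042 components the median was 0.821. A value of at least 0.75 was reached by 29.1% of members and by 63.6% of the 8042 components. These are descriptions over 7 stages, all of which share the same libraries and depth. The rule holds at least 5 of the 7 values below the lower neighbour, so low neighbours force low values. A positive correlation in members is thus partly built in. Members were also chosen for low values in the 7, where 118 of 179 held a 0. Ties at 0 and scatter near 0 can lower a rank correlation, and the part of this in the lower median was not tested. Among the 32 members with no 0 in the 7 and a neighbour mean of at least 5 at each of these stages, the log2 ratio to the neighbours had a median mean of -2.82 and a median SD within a member of 0.80. For the 3317 components that met the same criteria these were 0.08 and 0.40. Low values scatter more on a log2 scale, and the part of this in the wider SD of members was not tested. In a test of a linear trend with stage order inside the 7 libraries, 11 of 179 members passed (limma, adjusted p threshold 0.05), 3 that rose and 8 that fell. Over all 48818 components tested the share called was 5.31%, with 3.81% that rose and 1.50% that fell. Among the 8042 it was 17.5%, with 11.4% that rose and 6.08% that fell. The members' share, 6.15%, lay near the first and below the second of these. The count was 3 without NF 13, 5 without NF 24 and 3 without NF 29. The balance of direction did not hold across settings: 16 rose and 10 fell with values as deposited, 14 rose and 11 fell with a pseudocount of 0.1, and 0 were called without a filter.

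The 11 members called in the fit with scaled values peaked early or late in the 17 libraries in the same sense. The 8 that fell in the 7 all had their highest window mean in the cleavage-blastula window (7) or the gastrula window (1) of the 17, and the 3 that rose had it in the tailbud window. The rule holds most of the 7 values below their neighbours in the 17, so this agreement is partly fixed by the rule. It was not compared with that of other components. comp259819_c0 fell, with 15.0, 5.29, 2.17, 0.32, 0.16, 0 and 0 over the 7 stages (limma, log2 slope per stage step -0.19, SE 0.0341, adjusted p = 0.00846). comp238201_c0 rose, with 0, 0.98, 6.72, 20.6, 18.3, 35.2 and 13.9 (slope 0.20, SE 0.0447, adjusted p = 0.0228). The values of comp238201_c0 from NF 19 to NF 36 were all above that at NF 16.

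The rule did not contrast stages within the 17 libraries, but it used their values: a high peak in the 17 raises the mean and so helps a component to meet the 25% limit. The tests of stage below therefore describe the members and are not independent of how they were chosen. All 179 members passed the filter (4 or more of the 24 libraries at a value of 1 or higher), which the minimum mean in the 17 favours. A curve over stage order was called for 174 of 179 members (97.2%; limma, adjusted p threshold 0.05), while the share called was 89.3% of all 48818 components tested and 91.3% of the 8042. The fitted curve spanned a median of 3.33 (log2) for members, 1.40 for all components and 1.90 for the 8042.

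Gastrula libraries were not told apart from cleavage-blastula libraries. limma called 0 of 179 members and 0.00% of all components, and 5 members and 399 components had an unadjusted p under 0.05. The median member change was 0.03 (log2). The windows include development inside them, so a count of 0 does not show that nothing changed.

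Most members changed between the gastrula and the neurula window. In neurula libraries 103 of 179 members rose (57.5%) and 22 fell (12.3%) relative to gastrula libraries. Over all components tested, 43.9% were called, 36.2% rose and 7.68% fell; of the 8042, 53.0% were called, 32.2% rose and 20.8% fell. The median log2 change was 1.38 for members, 0.42 for all components and 0.18 for the 8042. The split depended on the scaling. With equal column totals 88 members rose and 31 fell, while 1729 of the 8042 rose and 2815 fell, with medians of 0.96 for members and -0.25 for the 8042. With values as deposited 88 members rose and 28 fell, while 1806 of the 8042 rose and 2286 fell, with medians of 1.06 and -0.11. All members that rose were tailbud-high (89 of 113) or neurula-high (14 of 19), and those that fell were cleavage-blastula-high (21 of 41) or gastrula-high (1 of 6). The window with the highest mean comes from the same 17 libraries, so this split is a description.

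The members with the highest change in this comparison were low in gastrula libraries. comp144409_c0 averaged 2011 ± 2309 in neurula libraries (SD, n = 4) and 21.9 ± 21.7 in gastrula libraries (SD, n = 5), a fitted log2 difference of 6.45 (SE 0.827, limma adjusted p = 4.37e-05). It rose through the neurula window, from 179 at NF 13.5 to 5286 at NF 20, so its SD and SE include development. comp247079_c0 averaged 146 ± 94.9 in neurula (SD, n = 4) and 4.16 ± 8.81 in gastrula libraries (SD, n = 5), a fitted log2 difference of 6.02 (SE 0.972, limma adjusted p = 0.000212). In the 7 libraries it stood at 9.88 at NF 13, 13.6 at NF 16 and 8.09 at NF 19. comp265331_c3 averaged 97.3 ± 58.2 in neurula and 7.18 ± 12.2 in gastrula libraries, with 4.73 as its log2 difference (SE 0.933, limma adjusted p = 0.000924).

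The members that fell most in neurula libraries were highest in the cleavage-blastula window. comp284153_c0 averaged 3.53 ± 4.24 in neurula (SD, n = 4) and 20.5 ± 5.67 in gastrula libraries (SD, n = 5), a fitted log2 difference of -2.41 (SE 0.476, limma adjusted p = 0.000781). In the 7 libraries it was at 0 in 4 and reached 0.36 at most, and at NF 0 it was at 0 while NF 4 stood at 40.1. comp246152_c2 averaged 9.54 ± 8.88 in neurula and 49.9 ± 9.35 in gastrula libraries, a fitted log2 difference of -2.37 (SE 0.487, limma adjusted p = 0.00107). comp259142_c0 averaged 10.7 ± 15.4 in neurula and 75.3 ± 31.3 in gastrula libraries, a fitted log2 difference of -3.35 (SE 0.718, limma adjusted p = 0.00166). It was not absent at NF 0, with 36.0, against 77.4 at NF 4.

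Fewer members changed between the neurula and the tailbud window. In tailbud libraries 26 of 179 members rose (14.5%) and 16 fell (8.94%) relative to neurula libraries. Over all components tested, 28.8% were called, 23.7% rose and 5.12% fell; of the 8042, 33.5% were called, 16.6% rose and 16.9% fell. The members' share, 23.5%, was thus below both. The median log2 change was 0.10 for members, 0.27 for all components and -0.05 for the 8042. With values as deposited 55 members rose and 10 fell, and the background moved likewise: 37.1% of all components rose and 2.15% fell, and 2458 of the 8042 rose and 511 fell. The count called, 42, was 27 without NF 13.5, 26 without NF 15 and 67 without NF 20. With other scalings the median over all components moved to between 0.32 and 0.49 here, and to between 0.31 and 0.34 for neurula against gastrula.

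Early libraries of the 17 did not all hold the members alike. At NF 4, 21 of 179 members (11.7%) stood at 5 or more and at no less than 2 times the highest of NF 8 to 11, against 1.01% of the 8042 components. Of the 21, 17 were tailbud-high, with a median of 14.9 at NF 4 and 1 at NF 8 to 11. comp238201_c0 stood at 47.1 at NF 4, at 0 at NF 0 and at no more than 0.75 at NF 8 to 11. At NF 12.5, 20 members (11.2%) likewise stood at 5 or more and at no less than 2 times the highest of NF 10 to 12, against 2.95% of the 8042, and 7 members did so at both stages. NF 4 and NF 12.5 had the most reads per unit of value in the series (3.39 and 3.16 relative to NF 36), and the part of this in the result was not tested. NF 12.5 is a neighbour of NF 13 in the rule, and NF 4 that of NF 0. A high value at either stage helps a component to meet the rule, so these shares are not independent of how members were chosen. NF 4 is also the neighbour against which NF 0 was judged: 171 members were lower at NF 0 than at NF 4, 145 lower than at NF 8 and 116 lower than the lowest of NF 8 to 11.

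Other components of a member's assembly graph could be compared in a minority of cases. The 179 members came from 177 graphs, and 88 members (49.2%) had another component of their graph in the table, against 70.5% of the 8042. Of 253 such components outside the members, 32 had a mean of at least 5 in either set. Their median ratio of the 7 to the 17 was 105%, against 110.2% over the 9194 components outside the members with such a mean. Of the 32, 2 (6.25%) stood at 50% or less and 2 (6.25%) at 200% or more, while over the 9194 the shares were 5.76% and 8.96%. The rest of the 253 were too low to compare. comp241983_c0 (33.5%) and comp266145_c3 (33.3%) were the 2 low ones, chosen for mention after their values were seen. For comp269630, the member comp269630_c3 averaged 3.48 in the 7 libraries and 43.1 in the 17, while comp269630_c7 averaged 91.7 and 68.0. It too was chosen after its values were seen.

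The opposite pattern was less frequent. With high and low exchanged in the same criteria, 47 of the 8398 components with a mean of at least 5 over the 7 (0.560%) were high in the 7 and low in the 17. Their median fold of the 7 over the 17 was 4.94, while members had a median fold of the 17 over the 7 of 6.89. Of the 47, 23 had their highest value of the 7 at NF 36, the last stage of the series, and 2 had every library of the 7 above every library of the 17. Over the 8398 components, 22 (0.262%) had such a gap, and those outside the 47 missed the 25% limit. None of the 47 belonged to the assembly graph of a member.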

How the data were processed

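Whole-embryo RNA was measured in 24 libraries, 1 per NF stage. The authors deposited a normalized signal per assembled component and library. The values have 2 decimals, 0.458% of those above 0 are whole numbers, and column totals run from 342953 to 679612, so they are not counts. The sources used here do not state whether they are FPKM or TPM. CASAVA 1.8.2, Trimmomatic, Bowtie and RSEM are named in the submitters' processing notes, without role or order. Every column was matched to a stage through the labels.

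The members and lists were chosen with earlier results of these data known. Members were found on deposited values. For tests, median-of-ratios size factors came from the 15471 components never at 0, and a component was tested if 4 or more libraries reached 1. limma 3.58.1 (R 4.3.3) was fitted to log2(scaled value + 1), with a variance trend and robust empirical Bayes, over all 48818 components tested. The added 1 shrinks fold changes where values are low. The curve over stage order was a natural spline (4 degrees of freedom), and p-values were adjusted by Benjamini-Hochberg. Stages are not replicated, so p-values rest on scatter between stages. In the window comparisons that scatter includes development inside a window. Relative reads per unit of value were taken from the modal ratio of values between 0.1 and 1 in each pair of libraries. 97.8% of 276 pairs lay within 0.1 (log2) of the fit.

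Components named were the 6 members with the highest mean over the 17, the 4 with the lowest ratio, the 3 nearest the limit on either side, the 3 highest and 3 lowest changes in the window comparison with most calls, and the 3 with the smallest coefficient of variation. A planned set, members with a mirrored component in their graph, was empty. Other names were chosen after their values were seen.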

Additional observations from a re-analysis of the deposited data

Results flagged for a closer look

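Within the 4 windows, taken over all 24 libraries, 22 of 112 combinations of window and measure held a library whose gap to the nearest other exceeded Dixon's 95% critical value. That critical value is meant for replicates drawn from a normal distribution. These windows mix different stages and both sets of libraries, so no chance rate can be set beside the 22. Components that share libraries are also not independent. None of the 4 library-level measures was among them (member share of the total, member median, members at 1 or more, members at 0).

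NF 4 stood above the other cleavage-blastula libraries for 5 components: comp268795_c2 at 154 (next 62.9), comp62157_c1 at 25.2 (next 0.37), comp155117_c0 at 7.32 (next 0.63), comp247079_c0 at 1.42 (next 0.78) and comp265331_c3 at 44.5 (next 2.35). NF 12.5 stood above the other gastrula libraries for comp268795_c2 at 106, comp180879_c0 at 1.34, comp155117_c0 at 3.76, comp247079_c0 at 19.9 and comp265331_c3 at 28.8.

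NF 13.5, the first neurula library of the 17, stood above the rest of its window for comp266636_c0 at 7.17, comp293688_c0 at 8.49, comp284153_c0 at 9.61 and comp259142_c0 at 33.3. Elsewhere in the neurula window, NF 20 stood out for comp144409_c0 at 5286 and comp175326_c0 at 1.69, and NF 15 for comp139564_c0 at 4.89. In the tailbud window NF 35 stood out for comp139564_c0 at 60.1 and comp293688_c0 at 0.94, and NF 23 for comp263793_c3 at 9.8. The remaining values were near 0, comp180879_c0 at 0.22 at NF 9 and comp175326_c0 at 0.04 at NF 12.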

How the results depend on the processing

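The number of members was 163 with values scaled by the median of ratios (159 of them shared with the 179) and 183 after scaling to equal totals (165 shared). It was 300 with a limit of 50% or with a minimum mean of 2, where the list was capped (622 and 381 components met these criteria), 74 with a limit of 1/8, 88 with a minimum mean of 10, and 159 to 204 with 1 library left out. Members called for the stage curve were 170 to 174 with 1 library left out, for gastrula against cleavage-blastula 0 to 0, for neurula against gastrula 110 to 129, for tailbud against neurula 26 to 67, and for the trend in the 7 libraries 3 to 12. Tailbud against neurula gave 65 with values as deposited and 25 without a filter. The trend in the 7 gave 17 with equal totals, 26 as deposited (16 rose, 10 fell), 25 with a pseudocount of 0.1 (14 rose, 11 fell) and 0 without a filter; the cause was not tested. The other alternatives moved these counts by less than 1.5 times, and the 6 components named for neurula against gastrula kept direction and threshold in 132 of 132 alternatives. Values near 0 cannot be read closely, since read depth is unknown. No paired analysis was possible because the stages were not replicated.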
